A study of Mus musculus with 12 samples.

Results

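Livers of NLRP6 knockout mice (KO) were compared with livers of wild-type mice (WT) on a normal diet (ND), using 6 of the 12 libraries in the series. The 6 were taken by genotype and diet label, 3 libraries from WT and 3 from KO. All mice ate a normal diet until 8 weeks of age, and the ND groups continued on it while the other 2 groups, WT and KO on a high-fat diet (HFD), received that diet for 12 weeks. The 6 HFD libraries helped to estimate the spread between replicates and served as a reference in which the same genes could be looked up. The labels name a knockout and no allele, strain background, sex or age at sampling, and the stated design says that loss of NLRP6 was checked in hepatocytes. Whether other liver cells also lacked it was not stated in the labels. The stated aim concerns fat storage in hepatocytes, and the ND comparison asks how the genotypes differ without high-fat feeding.

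NLRP6 is a NOD-like receptor, one of a family of cytosolic proteins that sense microbial and damage signals. With the adaptor ASC it can recruit caspase-1 into an inflammasome, the complex that matures interleukin-18 and interleukin-1 beta. It is best known from the intestinal epithelium, where it has been linked to mucus secretion, antiviral defence and the composition of the microbiota, and it is also present in liver.

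The count table has 42554 rows. A filter on low counts kept 13843, referred to as genes: 13291 annotated genes and 552 unannotated loci. The annotated rows carry C57BL/6NJ strain IDs for which no symbols were at hand, and Nlrp6 itself, pathway genes and liver cell type markers were therefore not analysed here. The tissue label could therefore not be set against hepatocyte markers. In bulk liver, fewer cells of a type and less RNA per cell cannot be told apart. The WT ND libraries held 14072878 to 15131904 counts each and the KO ND libraries 14264205 to 15933886 (exact permutation test, two-sided, p = 0.6, where 3 against 3 allows no p below 0.1).

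The gene that separated the genotypes most sharply had no read in KO. MGP_C57BL6NJ_G0033694 had 2030, 2358 and 2019 counts in the WT ND libraries and 0 in each KO ND library. The groups stood far apart, with no KO read in any replicate, and the HFD libraries were alike in this, with 2981, 2198 and 2398 counts in WT and 0 in each of 3 in KO. In WT ND the gene averaged 135 ± 10.7 CPM (SD, n = 3), where CPM is the read count scaled to a common library size and composition. Set against a floor of 3 counts per library, the limit that a count of 0 allows, its level in KO ND was at least 728-fold lower. Its adjusted p was the smallest of all genes tested (edgeR quasi-likelihood test, Benjamini-Hochberg adjusted p = 1.34e-07). The floor covers counting error only.

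The genotypes differed in 666 genes on the normal diet, with more falls than rises in KO by edgeR. In KO, 272 genes rose, 1.96% of the 13843 tested, and 394 fell, 2.85%. Together these were 4.81% of those tested, called at an adjusted p under 0.05 (edgeR quasi-likelihood test). At an adjusted p under 0.01 the number was 116, or 0.838%, and at an unadjusted p under 0.05 it was 2951, or 21.3%. Of the edgeR calls 40.8% were rises. The balance was closer to even with DESeq2, at 624 rises and 689 falls (47.5% rises), and with limma-voom, at 342 and 397 (46.3%).

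**Figure D1:**
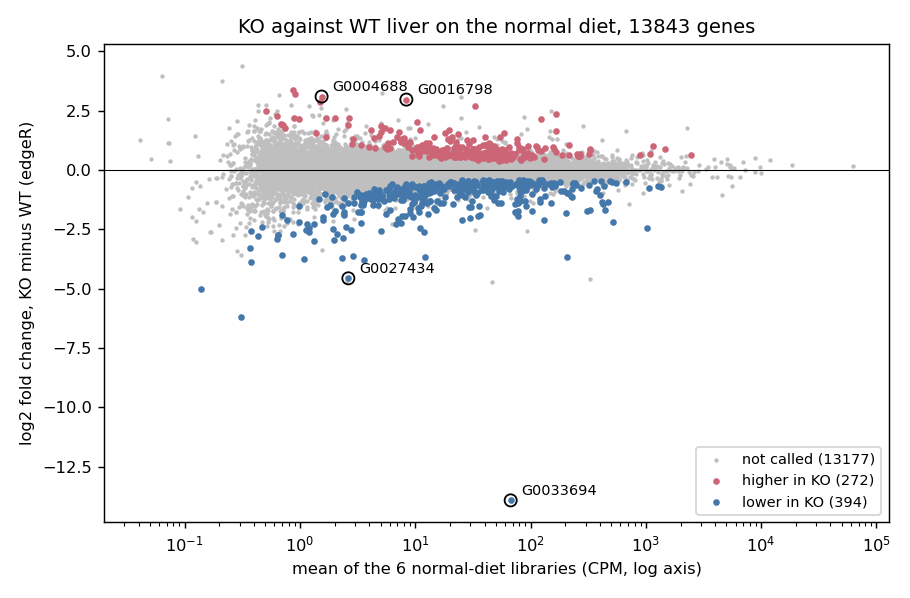
Each point is 1 gene, with its mean CPM over the 6 normal-diet libraries on a log axis and its log2 fold change, KO minus WT, from edgeR. The 272 genes called higher in KO lie above 0 and the 394 called lower lie below it; the 4 genes given by ID are circled, and MGP_C57BL6NJ_G0033694 sits alone at -13.92, a fitted value that depends on the prior count because KO has 0 reads.

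Over all abundances the falls had the larger median size. The genes that rose had a median log2 fold change of 0.78, and those that fell had a median of -0.93. Over all genes tested the median absolute log2 fold change was 0.25, and the median standard error was 0.21. A change of at least 2-fold was reached by 76 of the 272 genes that rose and by 177 of the 394 that fell. These are 0.549% and 1.28% of the genes tested. Counting all genes with a fitted change of that size, called or not, 376 were higher in KO (2.72%) and 510 lower (3.68%), so the tilt towards lower values in this fit was also present without the test. At 4-fold or more, 16 of the genes that rose (0.116% of those tested) and 47 of those that fell (0.34%) remained. The smallest called change was 0.39 on the log2 scale, and 121 of the 666 genes changed by less than 1.5-fold.

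The excess of falls lay mostly among genes of low and moderately high abundance. Between 1 and 10 CPM, 38 genes rose and 116 fell, out of 4488 tested. Between 10 and 100 CPM the directions were nearly even, with 193 rises and 201 falls among 6464 genes. From 100 to 1000 CPM, 28 rose and 57 fell among 1312 genes. The share of genes called was 1.70% under 1 CPM, 3.43% from 1 to 10 CPM and 6.10% from 10 to 100 CPM, and it was 6.48% from 100 to 1000 CPM. The error moved with these shares: the median standard error of the log2 fold change was 0.59 under 1 CPM and 0.16 from 10 to 100 CPM. From 1 to 10 CPM, where most of the excess falls lay, the order of sizes was the other way, with a median of 1.34 for the rises and 1.25 for the falls. Called genes changed most where counts were low, by a median of 2.57 log2 units in either direction under 1 CPM and 0.73 from 10 to 100 CPM. All 25 genes called under 1 CPM, 9 rises and 16 falls, changed at least 2-fold. A call needs a larger fitted change where the error is larger, so these sizes partly follow from the calling. Among the 107 genes over 1000 CPM, which include the most abundant liver transcripts, 8 were called, and their log2 fold changes ran from -2.44 to 1.01.

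The called genes made up a small part of the liver's RNA. Genes that rose held 1.58%, 1.47% and 1.68% of the counts in the WT ND libraries and 2.66%, 2.87% and 2.46% in the KO ND libraries. Genes that fell held 3.81%, 4.36% and 3.47% in WT ND and 2.11%, 1.81% and 2.11% in KO ND. The 95% Wilson intervals of these shares reach at most 0.0106 percentage points to either side and cover counting error only. All KO libraries lay outside the WT range on both measures, a separation that follows from how the genes were called. As group means, the shares moved from 1.58% ± 0.103 to 2.66% ± 0.208 for the rises and from 3.88% ± 0.451 to 2.01% ± 0.171 for the falls (SD, n = 3 each). MGP_C57BL6NJ_G0033694 contributed little, since without it the falling genes held 3.87% ± 0.450 in WT ND.

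The 6 libraries also parted by genotype when no gene was selected. In a principal component analysis of log2 CPM over all 13843 genes, the first component took 44.4% of the variance. WT ND libraries scored -31.7, -34.8 and -20.9 on it, and KO ND libraries scored 20.3, 41.9 and 25.2 (p = 0.1 in a two-sided exact permutation test, which can give no smaller value with 3 against 3). The second component, with 22.9% of the variance, did not follow genotype. WT ND replicate 1 scored 36.9 and KO ND replicate 1 scored 19.3, and the other 4 libraries scored from -24.1 to -2.13. Replicate 1 of each genotype thus stood apart from its own group on the second component.

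**Figure D2:**
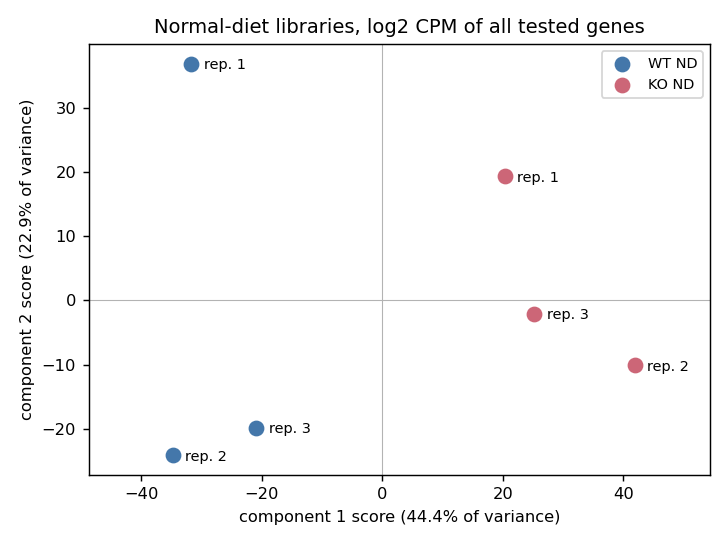
Scores of the 6 normal-diet libraries on the first component (x, 44.4% of variance) and the second (y, 22.9%), with 1 point per library. WT ND libraries lie between -34.8 and -20.9 on the x axis and KO ND libraries between 20.3 and 41.9, and replicate 1 of each group has the highest y score in its group.

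Distances between single libraries showed how close the 2 genotypes remained. The root mean square log2 difference over all genes was 0.438 to 0.580 for the 3 pairs within WT ND and 0.457 to 0.516 for the 3 pairs within KO ND. For the 9 pairs of a WT and a KO library it was 0.562 to 0.757. The lowest distances between genotypes therefore overlapped the highest within WT. For the typical gene, the SD between replicates was 0.21 log2 units in WT ND and 0.18 in KO ND, and the group means differed by 0.25. For the called genes, the SDs were 0.21 and 0.19 and the median difference of means was 0.85.

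Reads fell on somewhat more rows of the table in the KO libraries. KO ND libraries had a count in 18534 to 18695 rows and WT ND libraries in 18105 to 18369, a mean difference of 348 rows (p = 0.1 in the same exact permutation test; adjusted p = 0.35 over the 7 library measures compared). Thinned to the lowest ND total, the expected numbers were 18442 to 18569 in KO and 18105 to 18281 in WT (exact p = 0.1). Rows with at least 10 counts overlapped between the groups, at 13136 to 13381 in KO and 13059 to 13303 in WT (exact p = 0.4). The 10 most abundant genes took 17.2% ± 0.628 of the counts in KO ND and 15.9% ± 0.853 in WT ND (SD, n = 3 each; exact permutation p = 0.2), with overlapping ranges.

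Of the genes that rose, 2 are given by ID. All 4 genes given by ID were picked by fold change among called genes whose groups did not overlap. Their separation on ND therefore follows from the choice and tests nothing. MGP_C57BL6NJ_G0016798 had 17, 33 and 40 counts in WT ND and 265, 211 and 250 in KO ND. Every KO library was far above every WT library, and the 3 KO libraries lay close together. Its mean went from 1.91 ± 0.795 CPM to 14.9 ± 0.924 CPM (SD, n = 3 each). The ratio was 7.87, and its 95% exact binomial interval ran from 6.32 to 9.91, for counting error only and not for the spread between samples. The fitted log2 fold change was 2.96, with a standard error (SE) of 0.38 and an edgeR adjusted p of 0.00157. The groups did not overlap, a property that 31.9% of all genes tested shared. In the HFD libraries it was low in both genotypes, with 10, 4 and 9 counts in WT and 4, 16 and 22 in KO. The genotype difference there was 0.78 on the log2 scale (SE 0.53, edgeR adjusted p = 0.642), and the difference between the diets in the genotype effect did not pass its own test (log2 2.18, SE 0.67, edgeR adjusted p = 0.125).

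MGP_C57BL6NJ_G0004688, the largest called rise by fitted fold among genes averaging at least 1 CPM, rested on few reads. It had 6, 1 and 8 counts in WT ND and 25, 55 and 53 in KO ND. The groups did not overlap, and KO replicate 1 was the lowest of its group. The ratio was 8.65, and its 95% exact binomial interval, for counting error only, ran from 5.06 to 15.9. The fitted log2 fold change was 3.09 ± 0.73 (SE), with an edgeR adjusted p of 0.0311. The call was lost without any 1 of WT ND replicates 1, 2 and 3 and KO ND replicates 2 and 3, with edgeR adjusted p from 0.0539 to 0.138, and held only without KO ND replicate 1. It was also lost in limma-voom (adjusted p = 0.0551). HFD libraries had 16, 8 and 12 counts in WT and 10, 0 and 9 in KO.

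Of the genes that fell, MGP_C57BL6NJ_G0027434 is given beside the gene at 0. It had 95, 93 and 54 counts in WT ND and 3, 3 and 4 in KO ND. The lowest WT library was well above the highest KO library. The level was 24.8-fold lower in KO, and the 95% exact binomial interval of that ratio, for counting error only, ran from 13.3 to 52.4. The fitted log2 fold change was -4.57 ± 0.56 (SE), with an edgeR adjusted p of 0.00129. On HFD the 2 genotypes overlapped, with 14, 23 and 36 counts in WT and 20, 71 and 28 in KO, and the log2 difference was 0.64 (SE 0.45, edgeR adjusted p = 0.657). Of the 4 genes given by ID, this one passed the test of a difference between diets in the genotype effect (log2 -5.21, SE 0.73, edgeR adjusted p = 0.011). That difference contains the ND fall for which the gene was picked, so the choice of gene raises it.

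**Figure D3:**
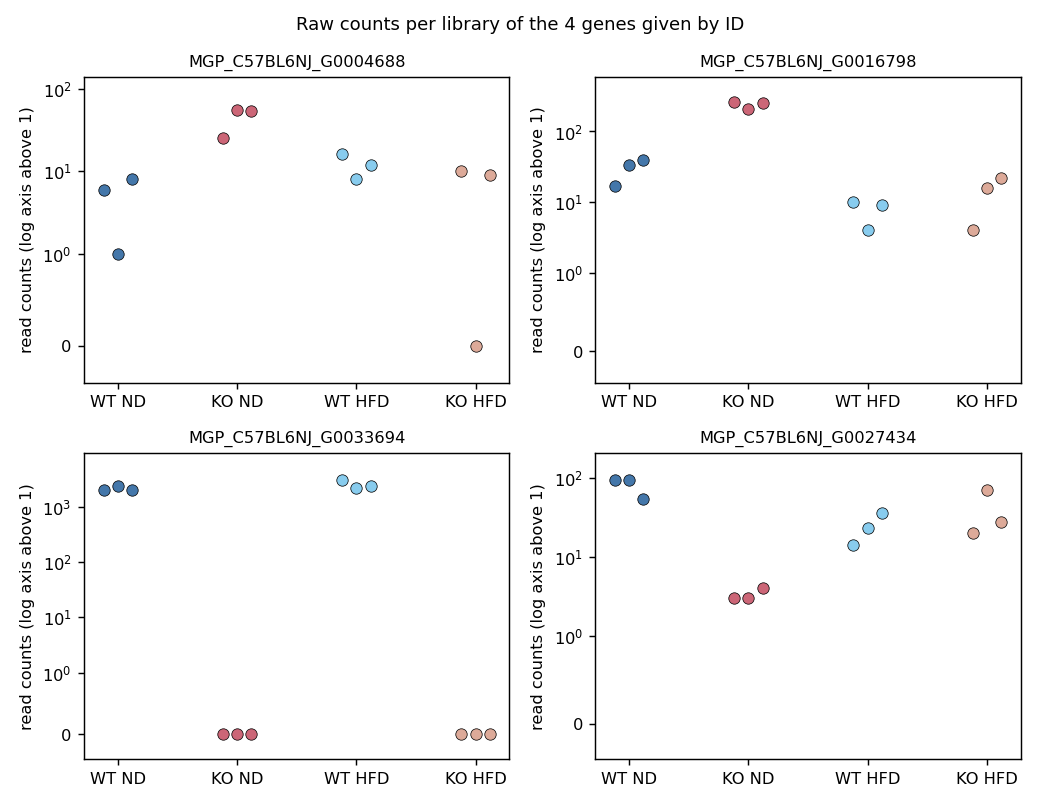
Raw read counts of the 4 genes given by ID, with 1 point per library in each of the 4 groups, on an axis that is logarithmic above 1 and linear below. MGP_C57BL6NJ_G0033694 has 0 counts in all 6 KO libraries, and for the other 3 genes the KO ND libraries lie outside the WT ND range while the 2 HFD groups overlap.

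Unannotated loci were among the called genes. Of the 552 tested, 21 were called (3.8%), and of 13291 annotated genes, 645 (4.85%). Among the 21, 8 rose and 13 fell, and 10 of the 13 fell at least 4-fold. The 13 falling loci held 1350, 1955 and 1596 counts together in the WT ND libraries and 633, 532 and 546 in the KO ND libraries. Scaled to CPM, they summed to 83.3 to 121 in WT ND, 33.3 to 37.1 in KO ND, 137 to 157 in WT HFD and 115 to 118 in KO HFD, so WT HFD lay above WT ND and all HFD libraries above KO ND. The 8 rising loci held 2146, 2336 and 2572 counts in WT ND and 5946, 5294 and 4720 in KO ND. Scaled, these were 132 to 168 CPM in WT ND and 288 to 348 CPM in KO ND, and on HFD 147 to 169 CPM in WT and 117 to 160 CPM in KO. Both sets were chosen on the ND libraries, so the ND counts describe them and test nothing. The share of all counts on unannotated loci was 2.14% ± 0.0473 in KO ND and 2.22% ± 0.109 in WT ND (SD, n = 3 each; exact permutation p = 0.3).

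By mean log2 CPM over each direction, the called genes lay nearer to their WT ND level than to their KO ND level in both HFD groups. The HFD values were not in the ND contrast, but the HFD libraries entered the filter on low counts and the estimate of the spread, so they are not free of the choice of genes. A fit of the 6 ND libraries alone called 944 genes, 584 of them among the 666. The 272 genes that rose averaged 4.19, 4.12 and 4.34 log2 CPM in the WT ND libraries and 5.09, 5.26 and 5.05 in the KO ND libraries. On HFD they averaged 4.26 ± 0.05 in WT and 4.23 ± 0.03 in KO (SD, 3 libraries each). The 394 genes that fell averaged 4.70, 4.87 and 4.61 in WT ND and 3.69, 3.49 and 3.66 in KO ND. On HFD they averaged 4.65 ± 0.04 in WT and 4.52 ± 0.02 in KO (SD, 3 libraries each). KO HFD libraries lay below WT HFD libraries for the falling genes, by much less than on ND; without the gene at 0 in KO the HFD means were 4.65 and 4.54. The distance of KO ND from WT ND follows from the choice of genes and tests nothing. The genes with the largest changes were looked up by summed CPM, a measure unlike the log2 averages, in which the most abundant genes weigh most. The 46 genes that fell at least 4-fold and had reads in KO summed to 3457 ± 1349 CPM in WT ND and 634 ± 106 in KO ND, and on HFD to 3407 ± 996 in WT and 1544 ± 235 in KO (SD, 3 libraries each). KO HFD, at 1377 to 1812 CPM, lay below WT HFD, at 2493 to 4469 CPM, without overlap. The 16 genes that rose at least 4-fold summed to 119 ± 31.1 CPM in WT ND and 596 ± 206 in KO ND. On HFD they summed to 315 ± 33.1 CPM in WT and 363 ± 25.1 in KO, between the 2 ND levels.

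**Figure D4:**
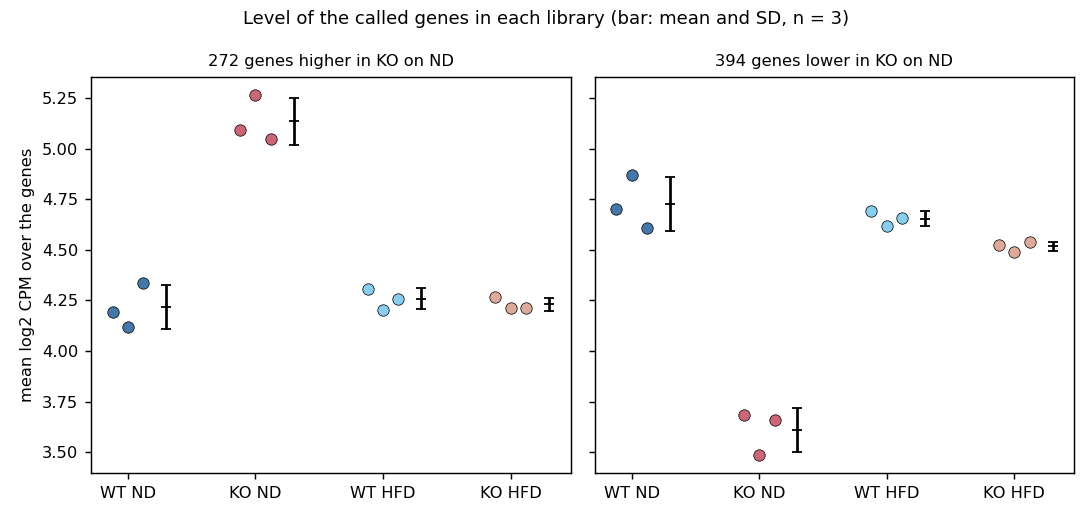
Mean log2 CPM over the 272 genes called higher (left) and the 394 called lower (right) in KO on the normal diet, with 1 point per library in all 4 groups, and the mean and SD (n = 3) as a bar. The KO ND libraries stand apart from the other 9 in both panels, at 5.05 to 5.26 on the left and 3.49 to 3.69 on the right.

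Gene by gene, KO ND was most often the group apart. For 454 of the 666 called genes, all 3 KO ND libraries lay outside the range of the other 9 libraries, WT ND and both HFD groups together. For 126 genes the 3 WT ND libraries lay outside the range of the other 9. Over all genes tested, the same held for 16.2% on the KO ND side and 6.32% on the WT ND side, so KO ND was the group apart more often than WT ND among the called genes and among genes at large. All 13 falling unannotated loci were of the first kind. The called genes and loci were chosen for a difference between KO ND and WT ND. Their counts are therefore raised by that choice and test nothing.

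On HFD, edgeR called 34 genes between the genotypes (0.246% of those tested), and 10 of them were among the 666, 7 in the same direction. These numbers depended on the method. DESeq2 called 261 of 13843 genes on HFD. Of its 1313 ND calls, 72 were among these, 38 of them in the same direction. Limma-voom with quality weights called 6036 of 13843 on HFD. Of its 1997 ND calls, 965 were among these, 453 of them in the same direction. With so many genes called on HFD, any set of genes would overlap them widely. The ND and HFD comparisons share no library but share 1 estimate of the spread. Of the genes that rose on ND, 136 of 272 had the same sign on HFD, and of those that fell, 228 of 394 (57.9%), where all genes tested gave 50.5%. The genotype effect differed between the diets, by the interaction term, for 38 of the 272 genes that rose and 74 of the 394 that fell, against 1.21% of all genes tested. That term contains the ND difference itself, so these counts are raised by the choice of genes and support nothing.

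Single libraries weighed heavily on the number of calls. Without WT ND replicate 1 the test called 420 genes, without WT ND replicate 2 it called 119, and without WT ND replicate 3 it called 460. Without KO ND replicate 1 it called 334, without KO ND replicate 2 it called 92, and without KO ND replicate 3 it called 255. WT ND replicate 2 and KO ND replicate 2, whose absence cost most, were the libraries farthest apart on the first component. By root mean square log2 difference, WT ND replicate 1 and KO ND replicate 2 were farther apart, at 0.757 against 0.726. Any link between these distances and the number of calls was not tested. The fit without WT ND replicate 2 left 25 rises and 94 falls, and the fit without KO ND replicate 2 left 23 rises and 69 falls. With fewer samples the test also has less power, and its part in these losses was not tested.

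**Figure D5:**
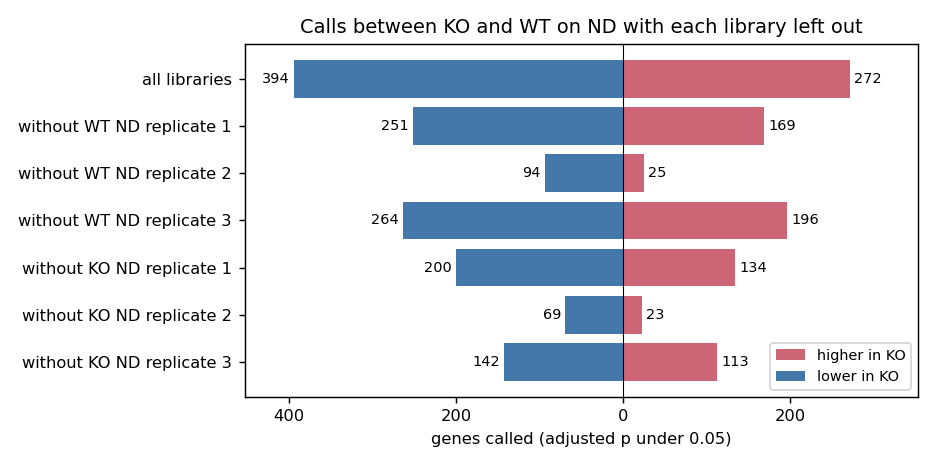
Number of genes called between KO and WT on the normal diet with all libraries and with each of the 6 left out, higher in KO to the right and lower to the left. The count falls from 272 and 394 to 25 and 94 without WT ND replicate 2 and to 23 and 69 without KO ND replicate 2.

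A smaller set did not depend on any 1 ND library. In all 6 fits that left out a library, 86 of the 666 genes were called, 20 rises and 66 falls. The same 86 were also called by DESeq2, by limma-voom, in a fit of the 6 ND libraries alone and with the replicate number as a block. These fits reuse the same libraries and are no independent evidence. Their median log2 fold change was 1.01 for the rises and -1.50 for the falls, and 68 of the 86 changed at least 2-fold. On HFD the median genotype difference was 0.01 for these rises and -0.11 for these falls. MGP_C57BL6NJ_G0033694, MGP_C57BL6NJ_G0027434 and MGP_C57BL6NJ_G0016798 were among the 86, and MGP_C57BL6NJ_G0004688 was not. A further 133 of the 666 genes were called in none of the 6 fits, 60 rises and 73 falls, and their median change in either direction was 0.61 log2 units. In 77 of the 666 genes the nearest WT and KO libraries were at least 1 log2 unit apart, 19 rises and 58 falls, where 97 of all genes tested (0.701%) had such a gap.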

How the data were processed

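The authors deposited raw read counts per gene for 12 liver libraries. Per the submitters' processing notes, reads were handled with HISAT2 (2.0.5) and featureCounts (version 1.5.0-p3), with mm39 as the build. The gene IDs are those of a C57BL/6NJ strain annotation, which leaves the annotation used uncertain, and neither coordinates nor sequences are printed. Libraries were made with an NEBNext Ultra RNA kit from TRIzol-extracted frozen tissue, per the labels' protocols; the strand setting and the handling of reads shared by near-identical genes were not stated, so gene families and overlapping genes are uncertain.

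Genes were kept by filterByExpr over the 4 groups, scaled by TMM factors and tested in edgeR 4.0.16 under R 4.3.3 (glmQLFit with the robust option, then glmQLFTest), with 1 mean per group over all 12 libraries and 8 residual degrees of freedom. Calls used a Benjamini-Hochberg adjusted p under 0.05 over 13843 genes. Log2 CPM used a prior count of 2. Alternatives used DESeq2 1.42.0, limma 3.58.1, other scalings, filters and left-out libraries. The main fit was also run on simulated counts with known changes, which checks the code and not the calls made here. The labels do not say that replicates are separate animals, so p-values reflect only how these samples varied, which may be technical. No replicate pair was a duplicate (chi-square per degree of freedom 16.1 to 47.3).

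The rule for naming genes took, by fold change, the top 2 genes in each direction among annotated, called, non-overlapping genes averaging at least 1 CPM. The 22 gene lists made for pathways and cell types could not be used, since 0 IDs matched a symbol, and were not analysed here. The comparison, the rule and the lists were chosen with earlier results of these data known.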

Additional observations from a re-analysis of the deposited data

Results flagged for a closer look

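For MGP_C57BL6NJ_G0027434 the genotype difference was not the same on the 2 diets. It was -4.57 on the log2 scale on ND and 0.64 on HFD, and the difference between these, -5.21 (SE 0.73), passed the interaction test of edgeR (adjusted p = 0.011 over 13843 genes). KO ND libraries were lower than all WT ND libraries in 3 of 3 replicates, with 10 counts in total, and the HFD groups overlapped. In WT the gene was also lower on HFD than on ND (log2 -1.38, edgeR adjusted p = 0.0219). The interaction contains the ND fall for which the gene was picked, so the choice of gene raises it.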

How the results depend on the processing

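The direction of the 4 genes given by ID held under every alternative run (MGP_C57BL6NJ_G0033694 was left out of 1), and the calls of all but MGP_C57BL6NJ_G0004688 held as well. The fit without the gene at 0 in KO and the thinning of libraries were chosen after seeing the data. DESeq2 called 1313 genes on ND and quality weights in limma 1997, and of these 414 and 455 changed at least 2-fold; the cause was not tested. Leaving out 1 library gave 92 to 460 called genes and 68 to 238 of at least 2-fold, with fewer samples in the fit. Without WT ND replicate 2 the latter number was 81, without KO ND replicate 2 it was 68 and without KO ND replicate 3 it was 158. Of the genes called on ND, 19 of 607 were also called on HFD without a filter on low counts, and 3 of 944 with each diet fitted alone. The number was 72 of 1313 with DESeq2, 965 of 1997 with quality weights, and 4 to 14 with 1 library left out. All HFD calls in these settings numbered 63, 8, 261 and 6036, and 20 to 39 with 1 library left out. These overlaps therefore also follow the number of genes called on HFD. Upper-quartile scaling moved the median log2 fold change of all genes from -0.003 to -0.04 and gave 241 rises and 457 falls, and the 6 ND libraries alone 420 and 524. In the difference of detected rows, of the top 10 share and of the unannotated share, leaving out 1 library gave 271 to 403 rows, 0.922 to 1.78 percentage points and -0.136 to -0.0336 percentage points. The labels state no pairing by replicate number, and the values did not settle it. Deviations of same-numbered libraries correlated at 0.246, 0.0413 and 0.0118, and the first was the highest of all pairs. KO replicates 1 and 2 correlated best with WT replicates 1 and 3, in that order. The replicate block, with 892 genes called on ND and 14 of them among its 47 HFD calls, is therefore given as a check only. Low counts limit genes under 1 CPM.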
